A study of Drosophila melanogaster with 10 samples.

Results

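The 10 genes of neuronal plasticity described here were compared between cultured cells sorted by fluorescence from 2 Drosophila melanogaster reporter strains. They comprise genes that neurons switch on after electrical activity (sr, Hr38 and puc), the factor gene CrebB, genes that make and break down cyclic AMP (rut and dnc), kinase genes (Pka-C1, for and CaMKII) and Nf1. A gene was measured where a probe set carried its symbol and no other, which held for 8 of the 10 genes, out of 11982 genes measured this way. Pka-C1 and CaMKII had no such probe set in the annotation used here and are given no value.

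The samples were 10 arrays of total RNA, 5 per strain. The Cha group carried 7.4 kb Cha-Gal:UAS-GFP, a pair of transgenes in which a 7.4 kb piece from the choline acetyltransferase locus makes the yeast activator Gal4, and Gal4 turns on green fluorescent protein. The Gad group carried 2.1 kb Gad1(s)-RFP, in which a 2.1 kb piece from the glutamate decarboxylase locus makes red fluorescent protein directly, with no Gal4 step. For both strains, adults 2 weeks old gave embryos, whose cells were dissociated early in gastrulation, kept in culture at 25 C for 5 to 7 days and sorted by fluorescence. Each reporter marks the cells in which its DNA fragment is active, the 2 strains differ in both transgenes and fluorescent protein, and the labels do not say whether samples came from separate cultures.

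Cyclic AMP is a second messenger through which fly neurons store simple associations. In the mushroom bodies, the seat of olfactory learning, the adenylyl cyclase encoded by rut is switched on jointly by calcium and by G proteins, the phosphodiesterase encoded by dnc removes the messenger, and protein kinase A passes the signal on to CREB factors in the nucleus. Flies that lack rut or dnc learn poorly. Activity-regulated genes are a further layer: they encode factors whose transcripts appear within minutes of firing and are used as marks of recently active neurons.

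Values are RMA expression values on the log2 scale, so a difference of 1 is a doubling, and every difference is a Cha mean minus a Gad mean. The tests were made with limma across all 11982 genes on the brightest probe set of each, with Benjamini-Hochberg adjustment over all of them and a threshold of 0.05. Of the 8 genes, 6 passed, while 18.5% of all genes did. sr, puc, dnc and Nf1 were higher in Cha, where 8.21% of all genes were, and rut and for were higher in Gad, where 10.2% were. Hr38 and CrebB did not pass. The Cha and Gad values lay apart without overlap for 4 of the 8 genes (sr, puc, Nf1 and for), against 13.5% of all genes. For sr, puc and Nf1 the higher group was Cha, as for 5.93% of all genes, and for the gene for it was Gad, as for 7.6%. These genes were put together with earlier results of the same arrays known, so their share is a description and not evidence about the group.

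**Figure D1:**
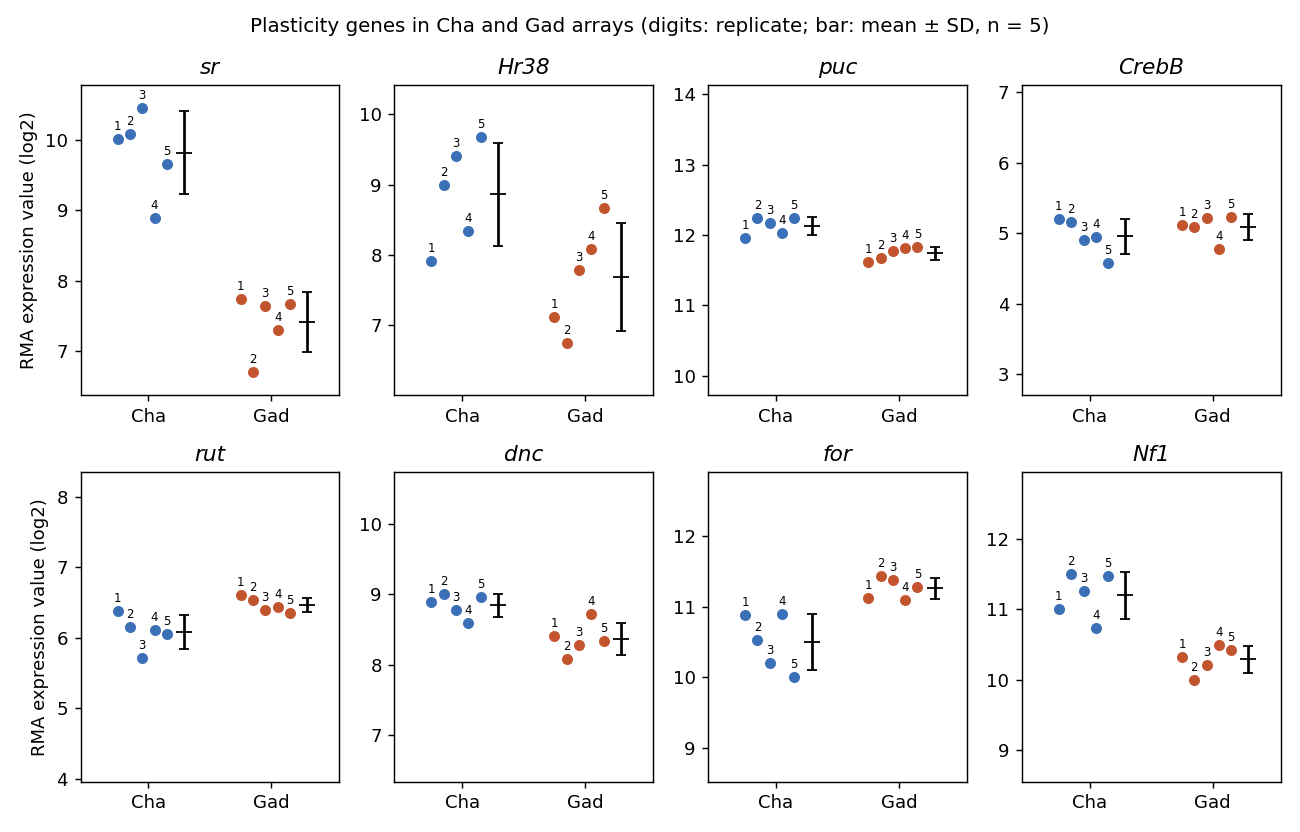
RMA expression values (log2 scale) of the 8 measured plasticity genes in each Cha array and each Gad array, with digits for the replicate and bars for the mean ± SD (n = 5 each); every panel spans the same number of log2 units. The sr values lie 1.15 log2 units apart between the groups, Hr38 spreads widely in both, and puc is tight in both.

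The reporter genes themselves gave no clear split. ChAT, which makes acetylcholine, averaged 11.39 ± 0.44 in Cha and 10.71 ± 0.39 in Gad (SD, n = 5; limma adjusted p = 0.067), and Gad1, which makes GABA, 12.49 ± 0.30 in Cha and 12.37 ± 0.19 in Gad (adjusted p = 0.626), so the groups are named by their labels. Neuron markers were present in both groups, and 6 of 8 were higher in Cha (median difference 0.96), with array means of the list from 10.07 to 10.83 in Cha and from 8.83 to 10.07 in Gad. The pan-neuronal factor gene elav was at 9.51 ± 0.56 in Cha and 9.10 ± 0.88 in Gad (adjusted p = 0.536). The neuron markers with the smallest p were Syn (1.75, limma adjusted p = 0.00031) and futsch (1.30, adjusted p = 0.00466), both higher in Cha. Among markers of other cells, 4 of 9 glial, 4 of 6 muscle, 3 of 7 neuroblast and 5 of 6 dividing-cell genes were higher in Gad and 0 of each in Cha, also at an unadjusted limma p under 0.05. Among 10 blood cell genes, 2 calls went toward Cha and 3 toward Gad, and array means of the list ran from 7.34 to 8.49 in Cha and from 7.64 to 8.21 in Gad. PPO1, a prophenoloxidase gene of crystal cells, averaged 8.84 ± 0.75 in Cha and 5.45 ± 0.45 in Gad. Its difference of 3.39 exceeded that of any plasticity gene measured, and PPO2 differed by 1.73. The blood cell factor gene srp differed by -1.73. For the other lists, array means ran from 8.27 to 8.66 in Cha and 8.80 to 9.02 in Gad for glia, and from 6.45 to 7.55 in Cha and 7.42 to 8.31 in Gad for muscle. For neuroblasts they ran from 7.52 to 8.84 in Cha and 8.96 to 9.59 in Gad, and for dividing cells from 7.08 to 7.96 in Cha and 8.25 to 8.52 in Gad. In glia, drpr differed by -0.75, zyd by -0.83 and repo by -0.88, and in muscle Mlc2 by -1.10 and Prm by -1.22. Among neuroblast genes, pon differed by -0.84 and grh by -1.52, while the defining marker wor did not pass (-1.17, limma adjusted p = 0.0589). The call of grh was lost without Cha replicate 2 and Gad replicate 5. Of the dividing-cell genes, CycB3 differed by -0.99 and cid, faint in Cha at 4.52, by -0.93. The calls in these lists lie in the same contrast as the genes below, and their part in the results was not tested. In sorted bulk samples, fewer cells of a type and less RNA per cell cannot be told apart.

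Among the activity-induced factors, sr showed by far the widest separation. This gene, stripe, encodes a zinc finger factor of the Egr class, one of the transcripts that rise when fly neurons fire. It stood at 10.01, 10.09, 10.45, 8.88 and 9.66 in Cha replicates 1 to 5, and at 7.74, 6.71, 7.64, 7.31 and 7.67 in Gad replicates 1 to 5. The lowest Cha array, replicate 4, was still well above the highest Gad array. The difference was 2.41 (SE 0.29, limma adjusted p = 0.000472), or 5.30-fold higher in Cha (95% interval 3.42 to 8.22). It was larger in size than the difference of 99.2% of all genes. The neuron markers had a median of 0.96, with 1.75 for Syn, and their part in the sr difference was not tested.

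The gene sr is also known as the factor that specifies tendon cells in the embryo, so tendon genes were read beside it. Of 9 measured tendon genes, limma called 0 toward Cha (1 at an unadjusted p under 0.05) and 2 toward Gad. Of all genes, 8.21% were called toward Cha and 10.2% toward Gad, so so few genes say little about the list. Array means of the list ran from 8.92 to 9.69 in Cha and from 9.34 to 9.65 in Gad. Thrombospondin, encoded by the defining tendon gene Tsp, was at 9.45 ± 0.43 in Cha and 10.39 ± 0.35 in Gad (adjusted p = 0.0152), and slow, whose product binds thrombospondin, was at 8.44 ± 0.34 in Cha and 9.21 ± 0.29 in Gad (adjusted p = 0.0158). These 2 genes lay in the opposite direction to sr, while the other 7 did not pass and the list median was 0.01. The call of slow was lost without Cha replicate 2 and Gad replicate 5, which carry the same letter in their labels.

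Hr38, the fly member of the Nr4a class of nuclear receptors and a widely used activity mark, had the widest scatter of the 8 genes. It stood at 7.92, 8.99, 9.40, 8.34 and 9.67 in Cha, and at 7.11, 6.75, 7.79, 8.09 and 8.67 in Gad (replicates 1 to 5). Cha replicate 1 lay below Gad replicates 4 and 5, so the groups overlapped. At 1.18, with a 95% interval of 0.28 to 2.08, its difference missed the threshold (limma adjusted p = 0.0693). Its SD of 0.73 in Cha was above that of 95.1% of all genes there, and its SD of 0.77 in Gad above that of 99.3%. The typical gene had a median SD of 0.252 in Cha and 0.167 in Gad. The call turned when either outer array was left out: without Cha replicate 1 the difference was 1.42 (adjusted p = 0.034), and without Gad replicate 5 it was 1.43 (adjusted p = 0.0408). A second probe set of Hr38 was faint, little above the percentile 40 of the arrays (4.75 to 4.84), with means of 5.07 in Cha and 5.22 in Gad and a difference of -0.15 (adjusted p = 0.525), and averaging both brought the difference to 0.52.

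The stress and activity gene puc had a small difference and little scatter. Its product, puckered, is a phosphatase that switches off the Jun kinase, and the gene is itself a target of that kinase. puc stood at 11.96, 12.24, 12.17, 12.03 and 12.24 in Cha, and at 11.62, 11.67, 11.78, 11.81 and 11.83 in Gad. All Cha arrays exceeded all Gad arrays, by a gap of 0.12. The difference of 0.39 (SE 0.09, adjusted p = 0.0147) amounts to 1.31-fold, and it missed the threshold when the 2 same-letter arrays were left out (0.38, adjusted p = 0.0594). Of 14 heat shock and stress genes listed, 5 were measured (Hsp26, Hsp27, Hsp68, DnaJ-1 and Hsc70-3), and those named Hsp70 were not. These 5 gave 0 limma calls, with array means from 12.06 to 12.88 in Cha and from 12.12 to 12.43 in Gad. At an unadjusted limma p under 0.05, Hsp26 was higher in Cha (0.52) and Hsc70-3 in Gad (-0.42). Any part of cell handling in the puc difference was not tested.

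The cyclic AMP genes on either side of the messenger were called in opposite directions, and neither call held in all settings. dnc, the phosphodiesterase, was higher in Cha, at 8.88, 9.003, 8.78, 8.59 and 8.95 in Cha and at 8.41, 8.07, 8.28, 8.71 and 8.34 in Gad. Gad replicate 4 lay above Cha replicate 4, and the other arrays were apart. The difference was 0.48 (SE 0.13, adjusted p = 0.0255), or 1.39-fold. It was lost when Cha replicate 2 or Gad replicate 2, 3 or 5 was left out, 4 of 10 such fits (adjusted p up to 0.0661), and when the 2 same-letter arrays were (0.43, adjusted p = 0.116).

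rut, the cyclase, was at 6.38, 6.15, 5.71, 6.11 and 6.06 in Cha, and at 6.61, 6.53, 6.39, 6.44 and 6.36 in Gad. The groups touched at 1 point, where Cha replicate 1 lay just above Gad replicate 5. The difference of -0.38 (SE 0.12, adjusted p = 0.0488), 1.30-fold higher in Gad, lay at the edge of the threshold. It passed in 2 of the 19 alternatives and ended in the other 17, with adjusted p from 0.0502 to 0.108, so the direction held throughout while the call did not.

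CrebB, whose product binds cyclic AMP response elements and is required for long-term memory, lay close to the percentile 40 of the arrays, and above it on 9 of 10. It stood at 5.21, 5.16, 4.91, 4.94 and 4.59 in Cha, and at 5.12, 5.08, 5.22, 4.78 and 5.23 in Gad, where that percentile lay between 4.75 and 4.84. The groups overlapped, and the difference was -0.13 (95% interval -0.42 to 0.17, adjusted p = 0.569). A second probe set was above that percentile on 6 arrays, with means of 4.65 in Cha and 5.09 in Gad and a difference of -0.44 (adjusted p = 0.0543 over all probe sets). RMA compresses differences at such low values, which limits what these arrays can show for CrebB.

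The gene for encodes a cyclic GMP-dependent protein kinase, known in flies for the rover and sitter types of foraging. Its values were 10.88, 10.54, 10.20, 10.89 and 10.0016 in Cha, and 11.12, 11.44, 11.38, 11.09 and 11.28 in Gad. Every Gad array exceeded every Cha array, and the Cha arrays were more scattered (SD 0.40 in Cha, 0.15 in Gad). The difference was -0.76 (SE 0.18, adjusted p = 0.0139), or 1.69-fold higher in Gad. The call held in all 10 fits without 1 array, and was lost without the 2 same-letter arrays (-0.76, adjusted p = 0.0648). The name of its single probe set ends in _s_at, a suffix that marks probes shared by several transcripts.

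Nf1 encodes neurofibromin, which switches off Ras and in flies is also needed for full cyclase activity and for learning. It stood at 11.01, 11.51, 11.26, 10.73 and 11.47 in Cha, and at 10.32, 9.9998, 10.21, 10.50 and 10.42 in Gad. The groups were apart by 0.23. The difference was 0.91 (SE 0.16, adjusted p = 0.00398), or 1.88-fold. The neuron markers had a median of 0.96, and their part in the Nf1 difference was not tested. Both other probe sets of the gene gave nearly the same value, 0.79 each, with adjusted p = 0.0226 and 0.0108 over all probe sets. The call of Nf1, like that of sr, held in all 19 alternatives.

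**Figure D2:**
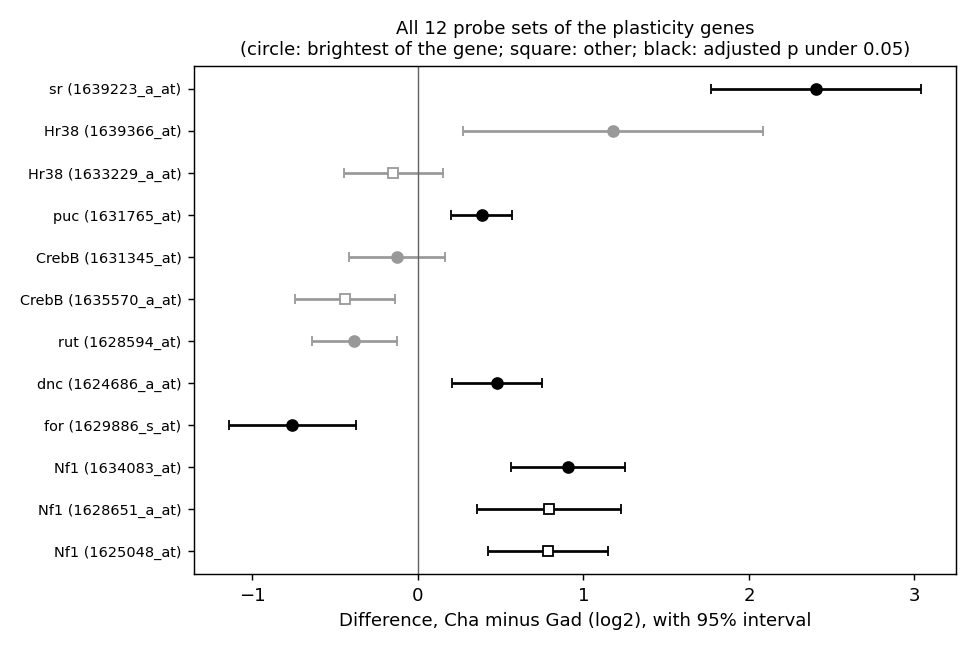
Differences (Cha minus Gad, log2) of all 12 probe sets of the 8 genes with their 95% intervals, from the fit over all 18769 probe sets; circles mark the brightest probe set of a gene, squares the others, and black those with adjusted p under 0.05. The 3 probe sets of Nf1 agree within their intervals, those of Hr38 do not share a sign, and rut, called over genes, lies just outside the threshold over probe sets (adjusted p = 0.0504).

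Array by array, the genes did not share 1 order. Cha replicate 4 held the lowest Cha value of sr, dnc and Nf1 and the highest of for, whereas Cha replicate 1 held the lowest of Hr38 and puc and the highest of rut and CrebB. In Gad, replicate 2 was lowest for sr, Hr38, dnc and Nf1 and highest for for. The neuron markers elav (8.70), Syn (11.19) and futsch (10.07) were also lowest in Cha in replicate 4. In Gad, replicate 2 was lowest for elav (7.59) and, with replicate 1, for futsch (9.15 in each), while Syn was lowest in replicate 3 (9.36). The part of neuron content in these array patterns was not tested. Exact permutation tests of the 8 genes, two-sided and not adjusted, gave p = 0.00794 for sr, puc, for and Nf1. They gave 0.0159 for dnc and rut, 0.0476 for Hr38 and 0.397 for CrebB. The value of 0.00794 is the smallest that 5 against 5 arrays allow. It follows whenever the groups do not overlap, as for 13.5% of all genes, so it only restates that separation.

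**Figure D3:**
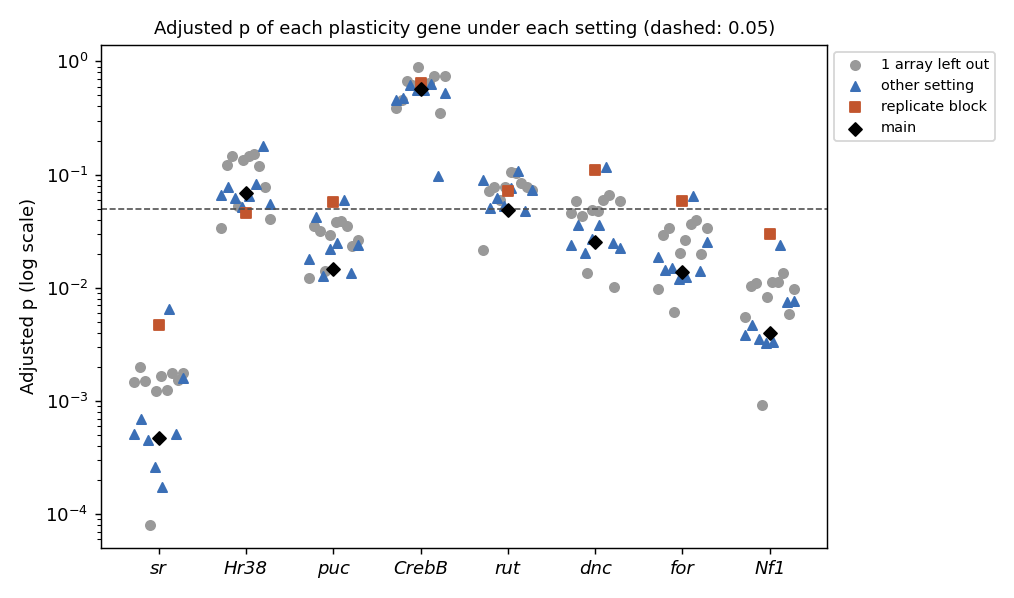
Adjusted p (log scale) of each of the 8 genes in the reported fit (diamond), with 1 array left out (circles), with the replicate number as a block (square) and in the other settings (triangles); the dashed line is at 0.05. All points of sr and Nf1 lie below the line and all of CrebB above it, while each of the other 5 genes has points on both sides.

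The wider pathways were read from 9 lists with 94 further genes, of which 73 were measured. Of these, 21 (28.8%) were higher in Cha and 2 (2.74%) in Gad, against 8.21% and 10.2% of all genes, and their median difference was 0.29, against 0.04 for all genes. The lists were chosen with earlier results of these arrays known, so these shares are a description and not evidence about the pathways. The neuron markers moved the same way (6 of 8 higher in Cha, median 0.96), and their part in these counts was not tested. Leaving out the 2 same-letter arrays gave 10 calls toward Cha and 1 toward Gad; among the genes named below, Galphao, Pde6, Akap200, CanA-14F, kay, crc, vap, Ilp8, wnd and gish then no longer passed.

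In cyclic AMP synthesis, 2 of 7 measured genes were higher in Cha and 1, rut, in Gad, with a list median of 0.16. The 2 were Galphas, the stimulatory G protein subunit that activates cyclases (11.82 ± 0.27 in Cha and 11.06 ± 0.18 in Gad, adjusted p = 0.00515), and Galphao, an abundant neuronal G protein subunit (13.26 ± 0.49 in Cha and 12.08 ± 0.48 in Gad, adjusted p = 0.0135). The 3 other cyclases measured did not pass, with differences of -0.36 for Ac13E, 0.29 for Ac76E and 0.16 for Ac78C. The higher level of a stimulatory subunit in Cha thus stood beside cyclase genes that were not shown to differ. The exception was rut, whose call ended in 17 of the 19 alternatives.

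Breakdown of cyclic nucleotides showed the highest median of the 9 lists, at 0.52, with 3 calls among 6 genes, all toward Cha. Beside dnc these were Pde1c, a phosphodiesterase stimulated by calmodulin (9.64 ± 0.57 in Cha and 8.31 ± 0.39 in Gad, adjusted p = 0.00791), and Pde6, which acts on cyclic GMP (9.45 ± 0.51 in Cha and 8.37 ± 0.30 in Gad, adjusted p = 0.0105). Of 3 further probe sets of Pde1c, none passed (0.62 with adjusted p = 0.117, and 0.08 and 0.01 on faint ones with means from 4.83 to 4.94). Among 5 genes of protein kinase A and other cyclic AMP effectors, 1 was higher in Cha, Akap200, which anchors the kinase (0.49, adjusted p = 0.0321), and its call ended in 7 of the 10 fits without 1 array. The regulatory subunit gene Pka-R1 (0.40, adjusted p = 0.0819) and the anchor gene rg (0.62, adjusted p = 0.0771) did not pass.

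In cyclic GMP signalling, for was the only one of 8 measured genes past the threshold. The guanylyl cyclase genes Gyc32E and Gycalpha99B differed by 0.63 each, toward Cha, without passing (adjusted p = 0.0899 and 0.0948), and both the list median of 0.07 and the direction of these cyclases differ from that of for. Without Cha replicate 4, 2 genes of this list were higher in Cha.

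Calcium signalling had 6 of 11 genes called toward Cha and 0 toward Gad, with a median of 0.43. They included 4 of the calcineurin phosphatase, which removes phosphate in response to calcium, among them its regulatory subunit CanB (13.75 ± 0.18 in Cha and 13.05 ± 0.25 in Gad, adjusted p = 0.00595) and its catalytic subunit CanA-14F (8.14 ± 0.31 in Cha and 7.30 ± 0.40 in Gad, adjusted p = 0.0176). The catalytic subunit gene CanA1, which was faint (4.56 in Cha and 4.82 in Gad), did not pass (adjusted p = 0.171). sra, a regulator of calcineurin, was also higher in Cha (0.59, adjusted p = 0.00355), as was the phospholipase C gene Plc21C (0.93, adjusted p = 0.00313). CanB, CanA-14F, sra and Plc21C held their call in every fit without 1 array, and CanA-14F lost it without the 2 same-letter arrays.

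Other activity-induced and CREB-linked genes moved much less than sr. Of 14 measured, 4 were higher in Cha and 0 in Gad: sr, Arc2 (0.46, adjusted p = 0.0225), kay, the fly Fos (0.50, adjusted p = 0.0325), and crc, the fly ATF4 (0.36, adjusted p = 0.0399). The calls of kay and crc each ended in 8 of the 10 fits without 1 array, and the count was 2 without Cha replicate 2, 3 or 5 or Gad replicate 2, and 1 without Gad replicate 3. The partner of kay, Jra (fly Jun), differed by 0.16 (adjusted p = 0.243), the CREB coactivator gene Crtc by -0.04 (adjusted p = 0.913), and CG14186, known from screens of activity-regulated fly genes, by 0.38 (adjusted p = 0.429). Arc1, the retrotransposon-derived gene of the same family as Arc2, was near the top of the scale in both groups, at 14.92 in Cha and 14.78 in Gad. A second probe set of Arc1 was lower and widely scattered, at 10.72 ± 0.94 in Cha and 10.06 ± 1.25 in Gad. Its difference was 0.66 (limma adjusted p = 0.532 over all probe sets).

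The kinase cascades next to Nf1 and puc gave mixed results. Of 8 Ras pathway genes, 2 were higher in Cha, Nf1 and vap (0.32, adjusted p = 0.0214), which encodes another protein that switches off Ras. The call of vap was lost without Gad replicate 1, which left 1 gene called in the list, with cyclic loess and with the trended and robust prior. Sos, whose product switches Ras on, differed by -0.21 (adjusted p = 0.518). Of 12 genes of the Jun kinase pathway, 3 were higher in Cha, namely puc and the upstream kinases Mkk4 (0.63, adjusted p = 0.00357) and wnd (0.66, adjusted p = 0.0289). The other 2 calls were in Gad: Ets21C, a factor gene induced through this pathway (6.49 ± 0.66 in Cha and 7.75 ± 0.26 in Gad, adjusted p = 0.0113), and Ilp8, a relaxin-like peptide gene (-0.46, adjusted p = 0.0266). The targets puc and Ets21C therefore lay in opposite directions. wnd lost its call in 6 and Ilp8 in 5 of the 10 fits without 1 array.

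Among 10 genes known from fly memory mutants, 4 were higher in Cha and 0 in Gad. These were klg, a surface adhesion protein gene (1.11, adjusted p = 0.00595), the RNA-binding protein genes stau (0.67, adjusted p = 0.00818) and pum (0.65, adjusted p = 0.00924), and gish, a casein kinase gene (0.59, adjusted p = 0.0185). A second, bright probe set of pum gave -0.03 (adjusted p = 0.948). The neuropeptide-like gene amn was below the percentile 40 on all arrays (3.46 in Cha and 3.50 in Gad).

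**Figure D4:**
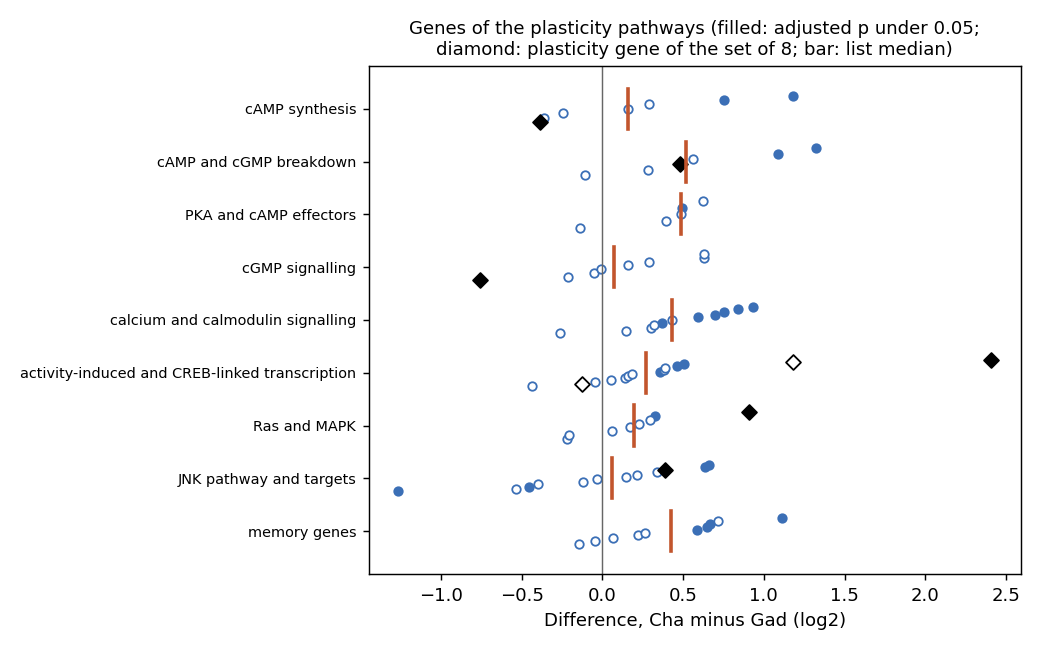
Differences (Cha minus Gad, log2) of all measured genes in the 9 pathway lists, filled where the adjusted p was under 0.05, with diamonds for the 8 plasticity genes and bars for the list medians. Most filled points lie to the right of 0, and for, rut, Ets21C and Ilp8 are the filled points to its left.

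The genes whose 10 values tracked sr most closely were found by the root mean square difference, in log2 units, after the mean of each gene over the 10 arrays was subtracted. For sr these were rdgB, a phosphatidylinositol transfer protein gene (0.28), Evi5 (0.29), the teneurin gene Ten-a (0.45), DIP2 (0.47) and the potassium channel gene Sh (0.48). Their own differences were 2.06, 2.48, 1.82, 2.01 and 1.78, all toward Cha, so the likeness mostly restates the split between the groups. Other probe sets of Evi5 gave 0.15 to 1.55, and that of rdgB 0.61 (adjusted p = 0.0598). Those of Ten-a gave 0.04 and 0.14 (adjusted p = 0.788 and 0.593), and those of Sh ran from -0.21 to 1.30. For Hr38 the closest were lov (0.36), twz (0.38), the mitochondrial calcium uniporter gene MCU (0.40), Proc, which encodes the peptide proctolin (0.41), and Schip1 (0.41). Unlike Hr38 itself, all 5 of these passed the threshold toward Cha, with differences from 1.02 to 1.39.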

How the data were processed

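The deposited values were log2 expression values that the authors made with RMA, per the submitters' processing notes, with no version stated. This method corrects background, equalises the distributions of the arrays and gives 1 value per probe set, so it removes a shift common to most genes and compresses dim ones. Values ran from 2.95 to 15.06 and array medians from 5.68 to 5.75. Of 18952 probe sets, 183 controls were left out and 18769 tested; 13647 carried 1 gene symbol, 402 several and 4720 were unnamed. The brightest probe set stood for each of 11982 genes.

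Groups came from the sample titles. The fit used R 4.3.3 and limma 3.58.1 (two-sided, no covariates, moderated by eBayes), with Benjamini-Hochberg adjustment over all genes. P-values reflect the spread among these arrays alone, possibly technical, since separate cultures are not stated, and 5 arrays per group limit the precision. Gad replicates 4 and 5 were the most alike of all pairs of arrays (SD of their difference 0.19, r = 0.997). The next closest pair, Gad replicates 3 and 5, had an SD of 0.28. Whether replicates 4 and 5 are independent samples cannot be told from the labels, so 1 alternative took their mean as 1 sample. The genes and lists were chosen with earlier results of these data known. Named were all measured plasticity genes, up to 4 further called genes per list with the smallest p (2 where none passed), up to 2 genes and the defining markers per marker list, and 5 genes closest to sr and to Hr38; uncalled list genes and markers named beyond this were chosen after their values were seen. Dim means below the percentile 40 of an array, and removal of dim probe sets kept those above it on at least 5 arrays. On simulated data of the 11982 genes with 200 changed, the fit recovered 34.3% of differences of 0.5, 88.1% of 1 and 98.5% of 2.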

Additional observations from a re-analysis of the deposited data

How the results depend on the processing

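In all 19 alternatives run, none of the 8 genes reversed its direction. sr, Nf1 and CrebB kept their side of the threshold in all of them. The replicate numbers are not known to pair the samples: deviations of same-numbered arrays correlated at -0.37 to 0.03. With the replicate number as a block, 1113 genes passed (352 higher in Cha and 761 in Gad), 3 of the 8 plasticity genes passed (0 higher in Gad), and the pathway calls were 7 toward Cha and 0 toward Gad. Hr38 then passed (adjusted p = 0.0454), and puc, rut, dnc and for did not (0.0573, 0.0715, 0.109 and 0.0581). The pathway genes named as lost without the same-letter arrays were lost under the block too, as were Pde1c, Arc2, Ets21C, pum, Tsp and slow. Leaving out the 2 same-letter arrays, 1055 genes passed (382 in Cha and 673 in Gad), 2 plasticity genes passed (2 in Cha and 0 in Gad), and the pathway calls were 10 toward Cha and 1 toward Gad. Cyclic loess, median centring, a second quantile normalization, removal of dim probe sets, the trended and robust prior, and the mean of Gad replicates 4 and 5 as 1 sample (chosen after the data were seen) each left 1 plasticity gene higher in Gad, since rut no longer passed. The second quantile normalization also left 1 pathway gene higher in Gad. Without 1 array, 1377 to 2614 genes passed, with 525 to 1252 higher in Cha and 852 to 1362 in Gad. The total was lowest without Gad replicate 3 and highest without Cha replicate 4. The count in Cha was 627, 525 and 621 without Gad replicates 2, 3 and 5. Without 1 array, 4 to 7 plasticity genes passed, 3 to 5 higher in Cha and 1 to 2 in Gad, and the pathway calls were 14 to 26 toward Cha and 1 to 3 toward Gad. That last count was 1 without Cha replicate 3 or Gad replicate 1, 2 or 5. Fits without an array have fewer samples; beyond that, the cause of these changes was not tested. Low signal limits CrebB and the second probe set of Hr38.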
